A study of Saccharomyces cerevisiae with 17 samples.

Results

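The genes described here are the 10 that make, use and transport glycerol in Saccharomyces cerevisiae: GPD1, GPD2, GPP1, GPP2, GUT1, GUT2, GCY1, DAK1, STL1 and FPS1. They were taken by gene symbol from the array annotation, and each was measured by 1 probe set. They are 10 of the 5449 yeast genes measured. The study followed 2 industrial wine yeast strains, BM45 and VIN13, through micro-aerobic fermentation of Colombar grape must. Total RNA was hybridised to Affymetrix arrays at day 2, which the design text calls exponential growth, at day 5, early stationary phase, and at day 14, late stationary phase. BM45 was measured on 2 arrays at day 2, 3 at day 5 and 3 at day 14, and VIN13 on 3 arrays at each day, 17 arrays in all. All groups shared the must and the low oxygen, and no treatment, mutation or allele is named for either strain. Each strain stands for itself alone, and the labels do not say whether the replicates of a group were separate fermentations.

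Glycerol is made in yeast by a short branch off glycolysis. Gpd1 and Gpd2 reduce dihydroxyacetone phosphate to glycerol 3-phosphate with NADH, and the phosphatases Gpp1 and Gpp2 remove the phosphate. The product balances the osmotic pressure of a sugar-rich medium such as grape must, and its synthesis reoxidises NADH where oxygen is short. GPD1 and GPP2 are known as the osmotically induced members of each pair, and GPD2 and GPP1 as those tied to growth without oxygen. Glycerol returns to metabolism through the kinase Gut1 and the mitochondrial dehydrogenase Gut2, or through the glycerol dehydrogenase Gcy1 and the dihydroxyacetone kinase Dak1. It leaves the cell through the channel Fps1, which closes under osmotic stress, and can be taken up with protons by the symporter Stl1, whose gene is known to be repressed by glucose.

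Intensities are given as the authors deposited them, 1 value per array, and changes are differences of group means of log2(intensity + 16) ± the standard error of the fit. The words rose, fell, higher and lower are used as results for genes with a limma p under 0.05 after Benjamini-Hochberg adjustment across the 5449 genes, which are called genes below. The probe sets of another yeast, S. pombe, on the same arrays gave a background bound at an intensity of 100.7, and all 10 genes lay above it on every array, except GUT2 on 1 array. Levels of different genes are not compared, since each probe set has its own brightness. The intensity of the median gene ranged from 866.6 to 1150.4 across arrays. The ratio of 3' to 5' signal of the ACT1 control, a measure of RNA integrity in which higher means more degraded, was 5.33 on replicate 4 of BM45 at day 2 and 5.55 on replicate 1 of VIN13 at day 2. It was 2.86 on replicate 3 of VIN13 at day 5, 2.37 on replicate 3 of VIN13 at day 14, and between 1.40 and 3.003 on the other 13 arrays. These 4 arrays had been named in an earlier account of these data as standing apart together, and each has the highest ratio of its group, so results that rest on them are given without them as well. They are called the 4 arrays of high ACT1 ratio below, but were not chosen by a cut on the ratio. The array at 3.003, replicate 3 of VIN13 at day 2, was kept and lies above those at 2.86 and 2.37.

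The state of the cultures was read from marker lists. All 7 growth markers, genes of ribosome assembly, fell in BM45 from day 2 to day 5, with a median change of -1.73, and 5 of 7 fell in VIN13, with a median of -0.94. The 7 stationary phase markers had 3 members that rose and none that fell over the same interval in each strain. From day 5 to day 14, 1 of them rose and 3 fell in BM45, and 0 rose and 3 fell in VIN13. Of 8 spore markers, between 3 and 6 had a group mean below the background bound, depending on the group. From day 2 to day 14, 5 of the 8 rose and 2 fell in BM45, and 4 rose and 0 fell in VIN13. The 6 haploid markers had a summed intensity of 1379 to 1471 in BM45 at day 2 and 3689 to 3848 at day 14, against 711 to 903 and 1819 to 2390 in VIN13. The part of these markers in the changes of the glycerol genes was not tested.

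Over time the glycerol genes did not move as a block. From day 2 to day 5 GUT2 and GCY1 rose and GPP2 fell in both strains. STL1 was called lower in VIN13 alone over that interval. FPS1 was called in neither strain, while with the ACT1 ratio as covariate its fall in BM45 was called, as given below. In BM45, 3 of the 10 rose and 1 fell, where 22.8% of all genes were called higher, 33.9% lower and 56.7% in either direction. In VIN13, 3 rose and 2 fell, where 15.5% of all genes were called higher, 22.2% lower and 37.7% in either. From day 5 to day 14, 2 rose and 4 fell in BM45, against 23.9% and 43.1% of all genes, or 67.1% called. In VIN13, 1 rose and 6 fell over that interval, against 19% and 24.5% of all genes, or 43.5% called. Between day 2 and day 14, 4 rose and 3 fell in BM45, against 28.8% and 46.6% of all genes, or 75.4% called. In VIN13, 2 rose and 4 fell between these days, against 28.2% and 35.5% of all genes, or 63.6% called. The median change of the 10 genes from day 5 to day 14 was -0.19 in BM45, where the median of all genes was -0.19, and -0.73 in VIN13, where that of all genes was -0.03. Called changes of at least 2-fold were fewer. In BM45 they numbered 2 of the 10 from day 2 to day 5, 2 from day 5 to day 14 and 3 from day 2 to day 14, where 16.3%, 22.2% and 41.5% of all genes passed. VIN13 had 1, 2 and 2, where 5.49%, 5.29% and 18.9% of all genes passed. Called genes at any size numbered 6, 8 and 8 in BM45 and 6, 8 and 7 in VIN13 without the 4 arrays of high ACT1 ratio, where 62.7%, 80.3% and 80.9% of all genes were called in BM45 and 52.7%, 54.9% and 71% in VIN13.

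**Figure D1:**
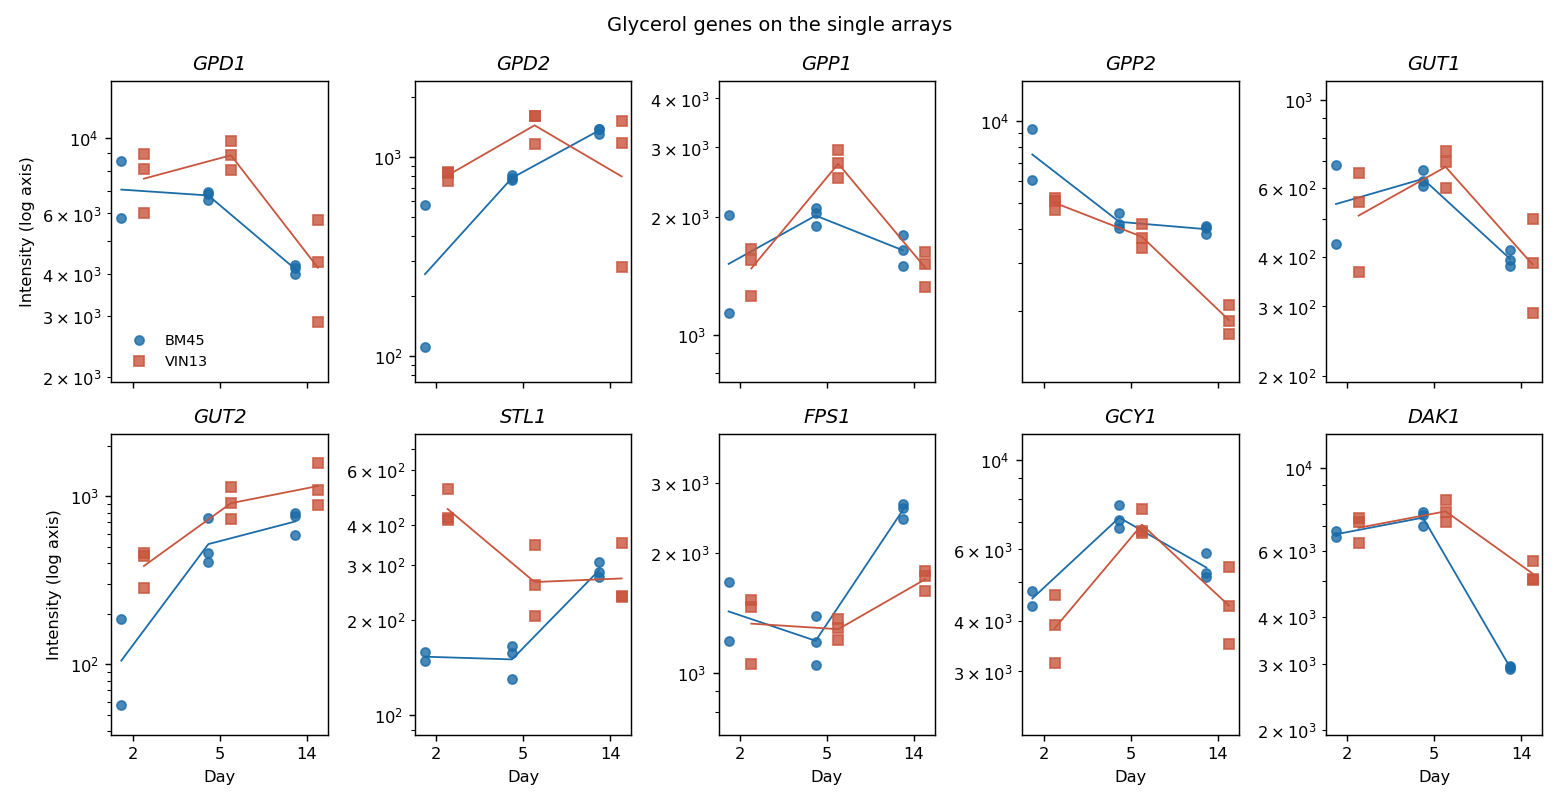
Deposited intensity of the 10 glycerol genes on each of the 17 arrays (log axis, set separately for each gene) at days 2, 5 and 14, with circles for BM45, squares for VIN13 and lines joining the group means of log2(intensity + 16). DAK1 of BM45 at day 14 lies between 2905 and 2964, below every other array, and GPD2 has single low arrays at 110.3 in BM45 at day 2 and 278 in VIN13 at day 14.

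Of the enzymes that make glycerol 3-phosphate, GPD1 (YDL022W) was high early and fell late in both strains. In BM45 its intensity was 8519 and 5828 at day 2, 6584, 6917 and 6823 at day 5, and 4145, 4253 and 3982 at day 14. The VIN13 values were 6037, 8944 and 8078 at day 2, 8919, 9756 and 8044 at day 5, and 5748, 2891 and 4339 at day 14. In each strain every array of day 14 lay below every array of days 2 and 5, while days 2 and 5 overlapped. From day 5 to day 14 GPD1 fell by 0.71 ± 0.21 in BM45 (adjusted p = 0.00685) and by 1.09 ± 0.21 in VIN13 (adjusted p = 0.000781). Against day 2 the fall to day 14 was -0.86 ± 0.21 in VIN13 (adjusted p = 0.00207) and -0.77 ± 0.23 in BM45 (adjusted p = 0.0072). The BM45 value was no longer called without replicate 2 of day 2 (-0.50 ± 0.27, adjusted p = 0.111) or with each array centred on its median gene (-0.44 ± 0.21, adjusted p = 0.0717). Between days 2 and 5 the change was -0.06 ± 0.23 in BM45 and 0.23 ± 0.21 in VIN13, and neither was called. With the ACT1 ratio as covariate the BM45 change was -0.58 ± 0.20 and called (adjusted p = 0.0252). It was -0.33 without the 4 arrays of high ACT1 ratio, which leaves 1 array of BM45 at day 2. With all 17 arrays the strains were not called different in GPD1 at any day, with differences of VIN13 over BM45 of 0.11 ± 0.23, 0.39 ± 0.21 and 0.01 ± 0.21 at days 2, 5 and 14. At day 5, however, every VIN13 array lay above every BM45 array, and the difference was called without the 4 arrays of high ACT1 ratio (0.46 ± 0.10, adjusted p = 0.00295), with that ratio as covariate (0.56 ± 0.14, adjusted p = 0.00736), with limma's array weights (0.49, adjusted p = 9.55e-05) and in a fit of only the arrays compared (adjusted p = 0.0113). At day 14 it was 0.27 ± 0.10 without the 4 arrays (adjusted p = 0.0323).

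GPD2 (YOL059W), the isoform tied to redox balance, ran the other way from GPD1 in BM45. Its intensity there was 574 and 110.3 at day 2, 779.9, 762 and 813 at day 5, and 1388, 1383 and 1309 at day 14, and the groups of the 3 days did not overlap. VIN13 gave 753, 834 and 839 at day 2, 1608, 1603 and 1166 at day 5, and 1519, 278 and 1180.1 at day 14. The VIN13 arrays of day 5 lay above those of day 2, and day 14 spread from below both to nearly the top of day 5. In BM45, GPD2 rose by 1.55 ± 0.58 from day 2 to day 5 (adjusted p = 0.0339) and by 2.33 ± 0.58 from day 2 to day 14 (adjusted p = 0.00199). In VIN13 no change over time was called, with 0.83 ± 0.52 from day 2 to day 5, -0.84 ± 0.52 from day 5 to day 14 and -0.02 ± 0.52 from day 2 to day 14.

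The size of these GPD2 values rested on single arrays. Without replicate 4 of BM45 at day 2 the rise in BM45 was 0.44 ± 0.57 to day 5 (adjusted p = 0.562) and 1.22 ± 0.57 to day 14 (adjusted p = 0.0687), and neither was called. Without replicate 2 of that group the rise to day 5 was 2.66 ± 0.57 (adjusted p = 0.00115). The call from day 2 to day 5 was also lost without any 1 array of BM45 at day 5 (adjusted p from 0.0635 to 0.0688). Without the 4 arrays of high ACT1 ratio the standard error of GPD2 fell to between 0.08 and 0.12 in comparisons of days within a strain. There GPD2 rose in BM45 by 0.44 ± 0.12 from day 2 to day 5 (adjusted p = 0.00575) and by 0.78 ± 0.08 from day 5 to day 14 (adjusted p = 1.82e-06). In VIN13 it then rose by 0.93 ± 0.10 from day 2 to day 5 (adjusted p = 1.69e-05), fell by 0.26 ± 0.10 from day 5 to day 14 (adjusted p = 0.0459), and lay 0.67 ± 0.10 above day 2 at day 14 (adjusted p = 7.77e-05), where all 17 arrays gave -0.02.

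GPD2 and GUT2 were also the glycerol genes that varied most with the ACT1 ratio among arrays of 1 group. Per doubling of the ratio within a group, log2 intensity changed by -0.86 ± 0.31 for GPD2 (adjusted p = 0.0417) and by -0.66 ± 0.17 for GUT2 (adjusted p = 0.00873). The slopes of GPD1, GUT1, FPS1 and GPP2 were also called, at -0.44, -0.44, -0.29 and -0.24, against a median of -0.05 over all genes, of which 34.2% were called. Those of GPP1, STL1, GCY1 and DAK1 were not called. With this ratio as covariate the rise of GPD2 in BM45 was 0.52 ± 0.60 from day 2 to day 5 (adjusted p = 0.507) and 1.22 ± 0.61 to day 14 (adjusted p = 0.0849).

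**Figure D2:**
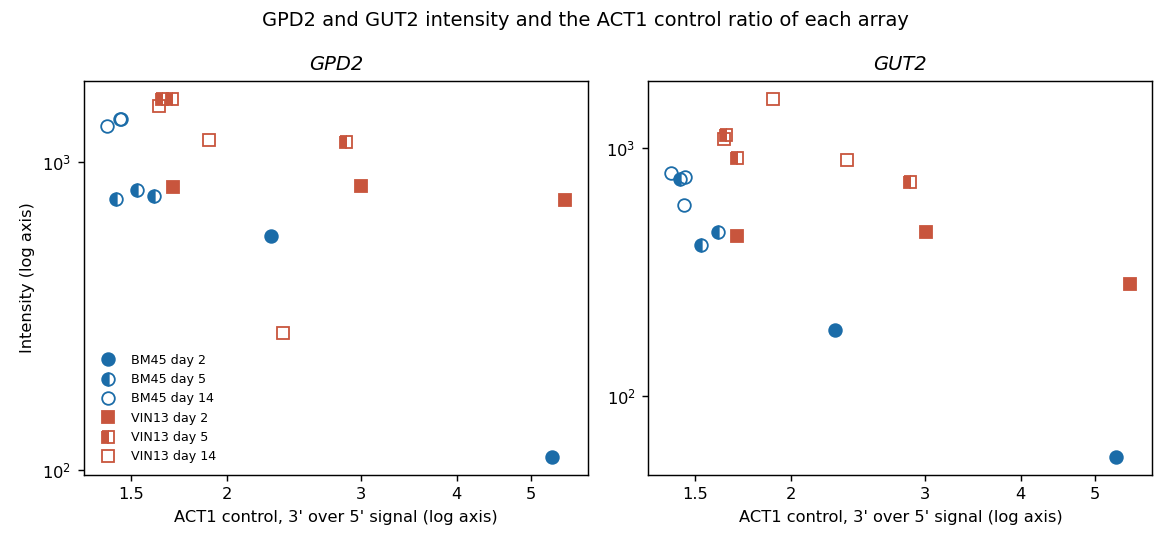
Intensity of GPD2 (left) and GUT2 (right) on each array against the 3' to 5' signal ratio of the ACT1 control (all axes log), with circles for BM45, squares for VIN13 and fill by day. The lowest value of each gene, 110.3 for GPD2 and 57.0 for GUT2, came from the BM45 array of day 2 with a ratio of 5.33.

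The balance of the pair was compared within arrays, where a shift of equal size in both genes drops out. The slopes on the ACT1 ratio given above were unequal, at -0.44 for GPD1 and -0.86 for GPD2, and such an effect does not drop out. The highest log2 ratio of GPD1 over GPD2, 5.53, came from the BM45 array of day 2 with an ACT1 ratio of 5.33. The paralog tests were not run with the ACT1 ratio as covariate. The log2 ratio of GPD1 over GPD2 was 4.69 ± 1.19 (SD, n = 2) in BM45 at day 2, 3.08 ± 0.06 (n = 3) at day 5 and 1.59 ± 0.02 (n = 3) at day 14. In VIN13 it was 3.21 ± 0.21, 2.61 ± 0.16 and 2.36 ± 0.82 (n = 3 each). The VIN13 arrays ranged from 2.98 to 3.40 at day 2 and from 1.86 to 3.31 at day 14. These days thus overlapped in VIN13, and they did not in BM45. As the brightness of the probe sets differs, the ratio carries no meaning as a level, and its change over time is the measurement. Over both strains, exact permutation tests of day labels within strains, two-sided and adjusted over 8 tests of the 2 pairs, gave a fall of 1.10 from day 2 to day 5 (p = 0.005, adjusted p = 0.01). The fall was 0.87 from day 5 to day 14 (exact p = 0.03, adjusted p = 0.04) and the change from day 2 to day 14 was -1.98 (exact p = 0.015, adjusted p = 0.024). The smallest p these tests allow is 0.005. The fall to day 5 was -0.68 without replicate 4 of BM45 at day 2 and -1.52 without replicate 2, and still passed (adjusted p = 0.025 for each). The change from day 5 to day 14 no longer passed without any of 9 single arrays (adjusted p from 0.06 to 0.0733), those of BM45 at days 5 and 14, replicate 3 of VIN13 at day 5 and replicates 1 and 4 of VIN13 at day 14. That from day 2 to day 14 no longer passed without any BM45 array of day 14 (adjusted p = 0.0733). Its size also depended on the BM45 arrays of day 2. It was -2.39 without replicate 2 and -1.56 without replicate 4, each leaving 1 array there. The ratio did not differ by the test between the strains (-0.40, adjusted p = 0.401), and it did without replicate 3 of VIN13 at day 14 (-0.56, adjusted p = 0.0371).

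The phosphatase genes also parted over time. GPP2 (YER062C), the osmotic isoform, fell from day 2 in both strains and went on falling in VIN13. Its intensity in BM45 was 9330.2 and 6064 at day 2, 4176, 4033 and 4582 at day 5, and 4112, 3839.7 and 4056 at day 14. VIN13 gave 4725, 5076 and 5198 at day 2, 3701, 4194 and 3405 at day 5, and 2101, 1648 and 1844 at day 14. The 3 days did not overlap in VIN13, and in BM45 days 5 and 14 overlapped below day 2. Between days 2 and 5 GPP2 fell by 0.82 ± 0.16 in BM45 (adjusted p = 0.000451) and by 0.41 ± 0.14 in VIN13 (adjusted p = 0.0299). The VIN13 call was lost without any of 4 single arrays (adjusted p from 0.0655 to 0.0933), namely replicate 2 or 3 of day 2 and replicate 1 or 3 of day 5. The BM45 fall was -0.51 ± 0.15 without replicate 2 of day 2. Between days 5 and 14 GPP2 fell by 1.01 ± 0.14 in VIN13 (adjusted p = 6.83e-05) and changed by -0.09 ± 0.14 in BM45 (adjusted p = 0.585). The change differed between the strains by -0.92 ± 0.20 (adjusted p = 0.00272). Between days 2 and 14 it fell by 1.42 ± 0.14 in VIN13 and by 0.91 ± 0.16 in BM45 (-0.60 ± 0.15 without replicate 2 of BM45 at day 2).

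GPP1 (YIL053W), the isoform tied to growth without oxygen, peaked at day 5 in VIN13. Its intensity there was 1649, 1551 and 1252 at day 2, 2745, 2954 and 2502 at day 5, and 1622, 1516 and 1319 at day 14. Day 5 lay above both other days, which overlapped. GPP1 rose by 0.88 ± 0.17 to day 5 (adjusted p = 0.00107) and fell by 0.87 ± 0.17 to day 14 (adjusted p = 0.000881). In BM45 it was 2019.6 and 1135 at day 2, 2042, 1891 and 2108 at day 5, and 1799, 1643 and 1496 at day 14. No change was called in BM45, at 0.41 ± 0.19 to day 5 (adjusted p = 0.0815) and -0.29 ± 0.17 from day 5 to day 14 (adjusted p = 0.143). The day 2 arrays of BM45 lay far apart, and without replicate 2 the rise to day 5 was 0.82 and called (adjusted p = 0.000786), while without replicate 4 it was -0.01 (adjusted p = 0.982). With all arrays it was called after median centring (0.55 ± 0.18, adjusted p = 0.0185), as was the change from day 2 to day 14 (0.45 ± 0.18, adjusted p = 0.0357, against 0.11 ± 0.19).

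The log2 ratio of GPP1 over GPP2 was -2.30 ± 0.14 (SD, n = 2) in BM45 at day 2, -1.08 ± 0.05 (n = 3) at day 5 and -1.28 ± 0.13 (n = 3) at day 14. In VIN13 it was -1.75 ± 0.27, -0.46 ± 0.04 and -0.32 ± 0.18 (n = 3 each). It rose by 1.26 from day 2 to day 5 over both strains (exact permutation p = 0.005, the smallest this test allows, adjusted p = 0.01) and lay 1.22 above day 2 at day 14 (p = 0.005, adjusted p = 0.01). It changed by -0.03 from day 5 to day 14 (exact permutation p = 0.67). At every day each VIN13 array lay above each BM45 array, and over the days the ratio was 0.71 higher in VIN13 (exact permutation p = 0.0005, adjusted p = 0.004). The 2 genes are near-identical copies, so their probe sets are open to cross-hybridisation, which was not tested.

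**Figure D3:**
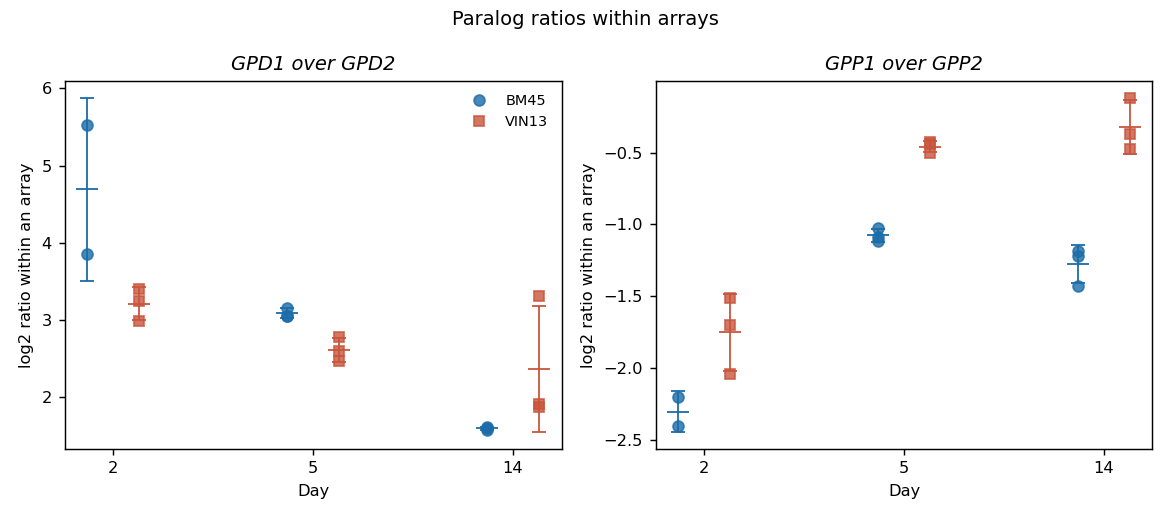
Log2 ratio of GPD1 over GPD2 (left) and of GPP1 over GPP2 (right) within each array at days 2, 5 and 14, with points for arrays, bars for mean ± SD, circles for BM45 and squares for VIN13. The mean of GPD1 over GPD2 moved down from day 2 to day 14, while the arrays of these days overlapped in VIN13. GPP1 over GPP2 moved up between days 2 and 5 and lay higher in VIN13 at each day.

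On the side of use, GUT2 (YIL155C), the mitochondrial glycerol 3-phosphate dehydrogenase, rose in both strains. In BM45 its intensity was 185 and 57.0 at day 2, the second value below the background bound, 461, 747 and 407 at day 5, and 589, 763 and 793 at day 14. The VIN13 values were 283, 440.4 and 457 at day 2, 913, 1130.4 and 732 at day 5, and 1089, 892 and 1575 at day 14. In each strain day 2 lay below days 5 and 14, which overlapped. GUT2 rose from day 2 to day 5 by 2.14 ± 0.37 in BM45 (adjusted p = 0.000226). The rise was 1.41 ± 0.36 without the array at 57.0 (adjusted p = 0.00534) and 1.35 ± 0.33 with the ACT1 ratio as covariate (adjusted p = 0.00427). In VIN13 GUT2 rose by 1.21 ± 0.33 (adjusted p = 0.011). That call was lost without replicate 1 of day 2 (0.997 ± 0.36, adjusted p = 0.0529), and the rise was 0.80 ± 0.26 with the covariate (adjusted p = 0.0226). By day 14 GUT2 had risen from day 2 by 2.58 ± 0.37 in BM45 (adjusted p = 1.43e-05) and by 1.54 ± 0.33 in VIN13 (adjusted p = 0.000931), and no change from day 5 to day 14 was called in either strain.

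GUT1 (YHL032C), the glycerol kinase gene that acts just before GUT2, did not follow it. Its intensity in BM45 was 686 and 433 at day 2, 624, 606 and 664 at day 5, and 394, 416 and 379 at day 14. VIN13 had 366, 552 and 653 at day 2, 697, 744 and 597 at day 5, and 501, 289.6 and 387 at day 14. Every array of day 14 lay below every array of day 5 of its strain. GUT1 fell between these days by 0.65 ± 0.21 in BM45 (adjusted p = 0.0137) and by 0.80 ± 0.21 in VIN13 (adjusted p = 0.00759). The BM45 value was -0.27 ± 0.18 after quantile normalization (adjusted p = 0.193) and was no longer called. Neither the change from day 2 to day 5 nor that from day 2 to day 14 was called in either strain. The latter, at -0.40 ± 0.21 in VIN13 and -0.44 ± 0.24 in BM45, passed the test without some single day 2 or day 14 arrays, such as replicate 1 of VIN13 at day 2 (-0.63, adjusted p = 0.0154) and replicate 4 of BM45 at day 2 (-0.77, adjusted p = 0.0196). With the ACT1 ratio as covariate it was called in both strains, at -1.02 in BM45 (adjusted p = 0.00042) and -0.69 in VIN13 (adjusted p = 0.00131). The VIN13 change from day 2 to day 5 was called after quantile normalization (0.51, adjusted p = 0.0337).

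The dehydrogenase and kinase of the other route peaked or held at day 5. GCY1 (YOR120W), a glycerol dehydrogenase of the aldo-keto reductase family, had intensities in BM45 of 4742 and 4349.9 at day 2, 7719.8, 6777 and 7108 at day 5, and 5888, 5128 and 5256 at day 14. In VIN13 they were 3141, 3906 and 4623, then 6571, 6656 and 7539, then 5431, 3501 and 4362. Day 5 lay above both other days in each strain. GCY1 rose to day 5 by 0.66 ± 0.17 in BM45 (adjusted p = 0.00446) and by 0.84 ± 0.15 in VIN13 (adjusted p = 0.000674). Fitted with the ACT1 ratio as covariate, the BM45 rise was 0.48 and missed the threshold (adjusted p = 0.0641). GCY1 then fell to day 14 by 0.41 ± 0.15 in BM45 (adjusted p = 0.0281) and by 0.66 ± 0.15 in VIN13 (adjusted p = 0.00302). The BM45 fall was -0.22 ± 0.13 after median centring (adjusted p = 0.148) and lost its call without any of 4 single arrays (adjusted p from 0.0563 to 0.0934), replicates 1 and 3 of day 5 and 2 and 3 of day 14. The VIN13 fall was -0.44 ± 0.12 without the 4 arrays of high ACT1 ratio (adjusted p = 0.00755). Between days 2 and 14 no difference was called, at 0.25 ± 0.17 in BM45 and 0.18 ± 0.15 in VIN13, but after median centring the BM45 value was 0.59 ± 0.15 and called (adjusted p = 0.00186).

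DAK1 (YML070W), which phosphorylates dihydroxyacetone, had the smallest standard errors of the 10 and, in BM45, the largest fall from day 5 to day 14. Its intensity in BM45 was 6518 and 6773 at day 2, 7615, 6992 and 7486 at day 5, and 2905, 2938 and 2964 at day 14. Those of VIN13 were 6278, 7154 and 7357, then 7169, 7599.8 and 8219, then 5645, 5003 and 5033. In both strains day 14 lay below all earlier arrays, and in BM45 it lay below all arrays of VIN13 at that day as well. DAK1 fell from day 5 to day 14 by 1.32 ± 0.09 in BM45 (adjusted p = 2.06e-08) and by 0.55 ± 0.09 in VIN13 (adjusted p = 0.000222). The difference between these changes was 0.77 ± 0.13 (adjusted p = 0.000566). Before that, the change to day 5 was 0.15 ± 0.10 and 0.15 ± 0.09 and was not called in either strain, while after median centring it was called in both, at 0.29 ± 0.08 in BM45 (adjusted p = 0.00756) and 0.21 ± 0.07 in VIN13 (adjusted p = 0.0367).

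**Figure D4:**
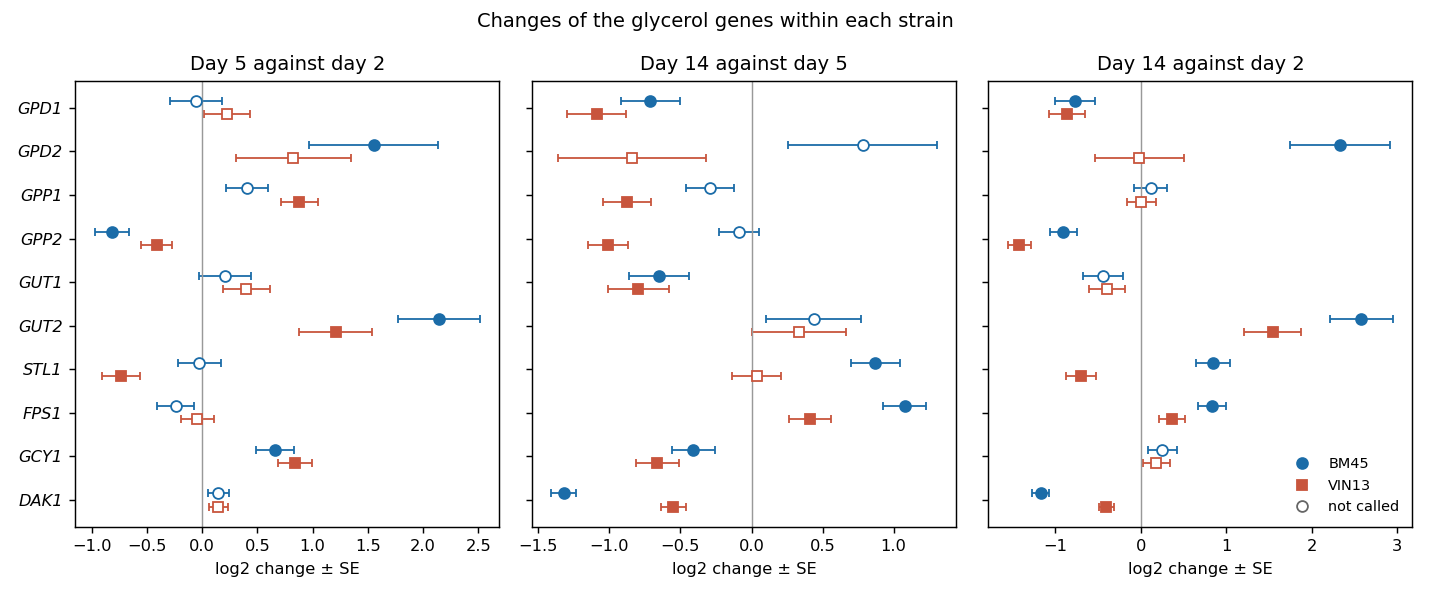
Log2 change ± SE of the 10 genes between days within each strain, with circles for BM45 and squares for VIN13, filled where the limma adjusted p lay under 0.05 and open where it did not (not called). GUT2 lies to the right of 0 in both strains against day 2, GPD1 and DAK1 lie to the left from day 5 to day 14, and STL1 lies on opposite sides in the strains from day 2 to day 14.

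Of the transport genes, STL1 (YDR536W), the glycerol and proton symporter, moved in opposite directions in the strains. In BM45 its intensity was 158 and 148 at day 2, 166, 129.9 and 157 at day 5, and 275, 285 and 306 at day 14, so that day 14 stood above both earlier days. In VIN13 it was 521, 423 and 416 at day 2, 206, 258 and 346 at day 5, and 237, 353 and 239 at day 14, so that day 2 stood above both later days. In BM45 STL1 changed by -0.03 ± 0.19 to day 5 and rose by 0.87 ± 0.17 from day 5 to day 14 (adjusted p = 0.000411). In VIN13 it fell by 0.74 ± 0.17 to day 5 (adjusted p = 0.00432) and changed by 0.04 ± 0.17 from then to day 14 (adjusted p = 0.888). From day 2 to day 14 it rose by 0.85 ± 0.19 in BM45 (adjusted p = 0.00105) and fell by 0.70 ± 0.17 in VIN13 (adjusted p = 0.00262). The difference of these changes, -1.55 ± 0.26, was called (adjusted p = 0.000459) and was -1.58 ± 0.18 without the 4 arrays of high ACT1 ratio (adjusted p = 4e-05). The lowest array of STL1, at 129.9, lay close to the background bound.

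FPS1 (YLL043W), the glycerol channel, rose late. In BM45 its intensity was 1691 and 1206 at day 2, 1196, 1395 and 1051 at day 5, and 2589, 2657 and 2442 at day 14. VIN13 gave 1054, 1525 and 1467, then 1299, 1365 and 1209, then 1611, 1754 and 1801. Day 14 lay above both other days in each strain, and days 2 and 5 overlapped. The change from day 2 to day 5 was -0.24 ± 0.17 in BM45 and -0.05 ± 0.15 in VIN13, not called. With the ACT1 ratio as covariate the BM45 change was -0.59 ± 0.15 and called (adjusted p = 0.00547). It was -0.48 without replicate 4 of BM45 at day 2 and also without the 4 arrays of high ACT1 ratio. Either choice leaves 1 array in that group. FPS1 rose from day 5 to day 14 by 1.08 ± 0.15 in BM45 (adjusted p = 1.51e-05) and by 0.41 ± 0.15 in VIN13 (adjusted p = 0.0372). The VIN13 call was lost without replicate 3 or 4 of day 14 or any array of day 5 (adjusted p from 0.0553 to 0.105). The rise from day 2 to day 14 was 0.84 ± 0.17 in BM45 (adjusted p = 0.000328) and 0.46 ± 0.16 there with the ACT1 ratio as covariate (adjusted p = 0.0158). In VIN13 it was 0.37 ± 0.15 (adjusted p = 0.0438), and this call was lost without replicate 1 of day 2 (0.20, adjusted p = 0.226), without any array of day 14 (adjusted p from 0.0501 to 0.113) and with the covariate (0.18, adjusted p = 0.205).

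The strains were then set against each other at the same day. At day 2 VIN13 had more STL1, GUT2 and GPD2 and less GPP2 than BM45, 3 of the 10 higher and 1 lower, where 7.95% of all genes were called higher, 23.3% lower and 31.2% in either direction. At day 5 only STL1 of the 10 was called in the fit of all arrays, and it was higher in VIN13. There 9.89% of all genes were called higher, 15.3% lower and 25.2% in either direction. GPD2, GPP1 and GUT2 differed at day 5 by 0.87 ± 0.52, 0.44 ± 0.17 and 0.79 ± 0.33, not called. In GPD2 and GPP1 every VIN13 array lay above every BM45 array, and in GUT2 the strains overlapped. The ACT1 covariate gave 1.21 (adjusted p = 0.0437), 0.51 (adjusted p = 0.0236) and 1.05 (adjusted p = 0.00398), all called. They were also called in a fit of only the arrays compared (adjusted p from 0.00169 to 0.0297). At day 14 DAK1 was higher and GPP2 and FPS1 were lower in VIN13, where 32.4% of all genes were called higher, 21.1% lower and 53.5% in either direction. GUT2 differed at day 14 by 0.69 ± 0.33, not called (adjusted p = 0.0944), though every VIN13 array lay above every BM45 array. The difference was called with the ACT1 covariate (0.98, adjusted p = 0.00319) and in a fit of only the arrays compared (adjusted p = 0.0192). Averaged over the days, GUT2, STL1 and DAK1 were higher and GPP2 was lower in VIN13, where 21.2% of all genes were called higher, 28% lower and 49.2% in either direction. Differences of at least 2-fold were called for 3 of the 10 at day 2, 0 at day 5, 1 at day 14 and 1 on average, where 4.62%, 3.95%, 10.1% and 3.12% of all genes passed. The counts were 5 at day 2, 5 at day 5, 6 at day 14 and 7 on average without the 4 arrays of high ACT1 ratio, where 43.4%, 50.9%, 69.8% and 64.4% of all genes were called. Without replicate 4 of BM45 alone, the day 2 differences of GPD2 and GUT2 were 0.48 and 0.997, as given below.

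Among these strain differences STL1 at day 2, at 416 to 521 in VIN13 against 148 and 158 in BM45, was 1.46 ± 0.19 (adjusted p = 8.14e-05). It was 0.75 ± 0.17 at day 5 (adjusted p = 0.00531) and -0.08 ± 0.17 at day 14 (adjusted p = 0.717), or -0.26 ± 0.11 at day 14 without the 4 arrays of high ACT1 ratio (adjusted p = 0.0434). GPP2 was lower in VIN13 by 0.59 ± 0.16 at day 2 (adjusted p = 0.0102), and this call was lost without replicate 2 of BM45 (-0.28, adjusted p = 0.149). At day 14 GPP2 was lower by 1.10 ± 0.14 (adjusted p = 1.45e-05), with VIN13 at 1648 to 2101 and BM45 at 3839.7 to 4112. DAK1 at day 14 was 0.83 ± 0.09 higher in VIN13 (adjusted p = 3.53e-06), and FPS1 was lower there by 0.57 ± 0.15 (adjusted p = 0.00504).

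The day 2 differences of GPD2 and GUT2 depended in size on single arrays of BM45. GPD2 was 1.59 ± 0.58 higher in VIN13 (adjusted p = 0.0497), and without replicate 4 of BM45 the difference was 0.48 ± 0.57 (adjusted p = 0.57). Its call was also lost without any VIN13 array of day 2 (adjusted p from 0.0677 to 0.0991), and the difference was 2.71 ± 0.57 without replicate 2 of BM45. GUT2 was 1.73 ± 0.37 higher (adjusted p = 0.00325), and without replicate 4 of BM45 it was 0.997 ± 0.36 higher (adjusted p = 0.0558). Without all 4 arrays of high ratio, GPD2 was 0.53 ± 0.12 (adjusted p = 0.00483) and GUT2 1.21 ± 0.30 (adjusted p = 0.00737) higher in VIN13. Averaged over the days GUT2 was 1.07 ± 0.20 higher in VIN13 (adjusted p = 0.000472), and 1.01 ± 0.15 higher without the 4 arrays.

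Whether the strains changed differently over time was tested directly, as the change in VIN13 minus that in BM45. For the interval from day 2 to day 5 limma called 0 of the 10 genes, where 6.53% of all genes were called positive, 2.13% negative and 8.66% in either direction. There 1 of the 10, STL1, had an unadjusted p under 0.05 (-0.71 ± 0.26, adjusted p = 0.102). Without the 4 arrays of high ACT1 ratio 4 were called, namely GPP1 at 1.03 ± 0.19, GPP2 at 0.75 ± 0.14, STL1 at -0.75 ± 0.18 and GPD2 at 0.49 ± 0.15, and 27.4% of all genes were called there. STL1 was called without replicate 3 of VIN13 at day 5 (-0.89 ± 0.24, adjusted p = 0.0365). Without replicate 2 of BM45 at day 2 GUT2 was at -1.67, and without replicate 4 of that group GPP1 was at 0.89 and GPP2 at 0.72. Over days 5 to 14, 4 of the 10 were called, 1 positive and 3 negative, where 23.8% of all genes were called positive, 10.3% negative and 34.2% in either direction. They were DAK1 and GPP2, given above, STL1 at -0.84 ± 0.25 (adjusted p = 0.0173) and FPS1 at -0.67 ± 0.21 (adjusted p = 0.0252). The FPS1 call was lost on leaving out any of 7 single arrays (adjusted p from 0.0501 to 0.0686), and it was -0.72 ± 0.15 without the 4 arrays (adjusted p = 0.00118).

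From day 2 to day 14, 3 of the 10 differed between the strains, 1 positive and 2 negative, where 30.6% of all genes were called positive, 10.1% negative and 40.7% in either direction. Of the 10, 0 had a called difference of at least 2-fold from day 2 to day 5 or from day 5 to day 14, where 2.31% and 7.84% of all genes did, and 2 had one from day 2 to day 14, where 12.9% did. The called genes were STL1, given above, DAK1 at 0.77 ± 0.13 (adjusted p = 0.000536) and GPD2 at -2.35 ± 0.78 (adjusted p = 0.0263). The GPD2 value was -1.24 ± 0.70 without replicate 4 of BM45 at day 2 (adjusted p = 0.182) and -0.55 ± 0.15 without the 4 arrays (adjusted p = 0.0093). Without replicate 2 of BM45 at day 2, which leaves 1 array there, GUT2 was at -1.77, GPP2 at -0.82, FPS1 at -0.71 and GPP1 at -0.52. With all arrays these were -1.04, -0.51, -0.47 and -0.11 and not called. The DAK1 value was 0.50 ± 0.11 after median centring (adjusted p = 0.00315).

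**Figure D5:**
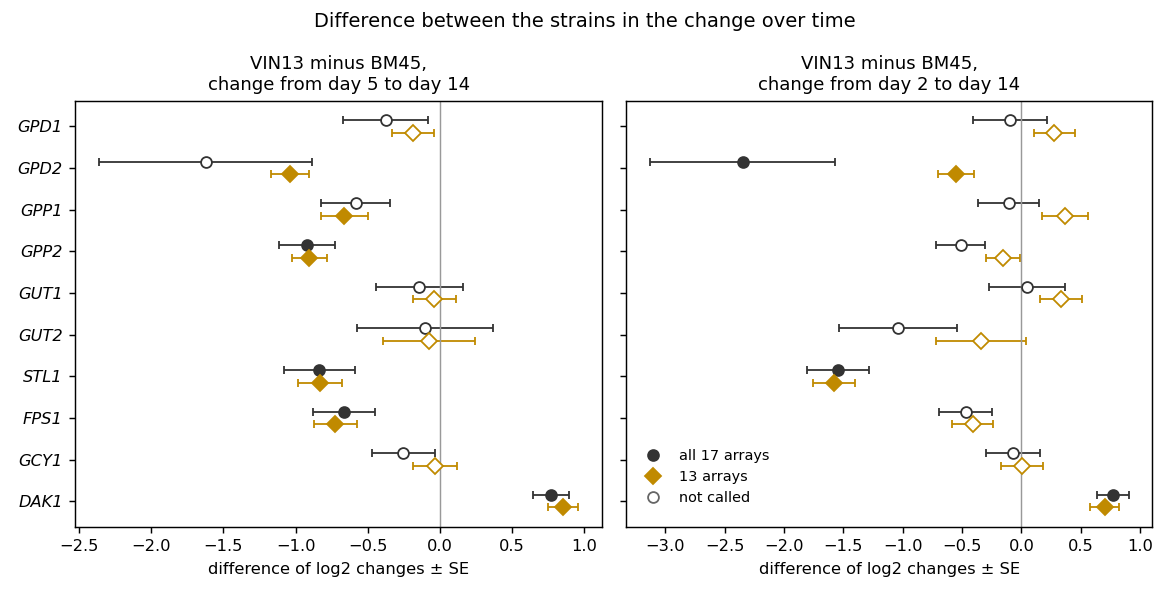
Difference between the strains in the log2 change over time (VIN13 minus BM45) ± SE, from day 5 to day 14 (left) and from day 2 to day 14 (right), with black circles for all 17 arrays and ochre diamonds for the 13 arrays left without the 4 of high ACT1 ratio, filled where called and open where not. STL1 and DAK1 have nearly the same value in both sets, and GPD2 from day 2 to day 14 moves from -2.35 to -0.55.

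The genes around the pathway were read from a list of 47 genes of osmotic signalling and of the redox and lipid reactions that border on glycerol, of which 46 were measured. In BM45, 14 rose and 7 fell from day 2 to day 5, 18 rose and 11 fell from day 5 to day 14, and 19 rose and 12 fell from day 2 to day 14. In VIN13 these counts were 13 and 7, 12 and 7, and 23 and 11. The shares called, 45.7%, 63.0% and 67.4% in BM45 and 43.5%, 41.3% and 73.9% in VIN13, stand beside the background shares given above for the same comparisons. The list's median change from day 2 to day 14 was 0.35 in BM45 and 0.46 in VIN13, where the median of all genes was -0.24 and -0.06. With a limma adjusted p under 0.05, VIN13 and BM45 differed in 9 of the 46 at day 2, 12 at day 5 and 21 at day 14. These were 19.6%, 26.1% and 45.7% of the list, where 31.2%, 25.2% and 53.5% of all genes were called. Without the 4 arrays of high ACT1 ratio the counts were 18 at day 2 and 31 at day 5, and 29 in VIN13 from day 5 to day 14, where 43.4%, 50.9% and 54.9% of all genes were called. The count at day 5 was smaller without replicate 2 or 3 of BM45 or replicate 1 or 2 of VIN13 at that day. It is not given, as the share of all genes called was not taken for these fits.

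Transcription factors were among the largest increases of this list. ADR1, an activator of genes for growth on nonfermentable carbon, glycerol among it, rose from day 2 to day 14 by 3.58 ± 0.43 in BM45 (adjusted p = 2.05e-06) and by 2.21 ± 0.38 in VIN13 (adjusted p = 0.000149). MSN4, a general stress activator, rose by 3.17 ± 0.38 in BM45 and by 2.49 ± 0.34 in VIN13 over the same days. MSN1, a factor named in osmotic gene induction, rose by 2.62 ± 0.16 in BM45, and the change differed between the strains by -1.20 ± 0.21 (VIN13 minus BM45, adjusted p = 0.000587). NDE1, an external NADH dehydrogenase of mitochondria that competes with glycerol formation for cytosolic NADH, rose by 1.84 ± 0.18 from day 5 to day 14 in BM45 (adjusted p = 4.62e-07), and at day 5 it was 1.38 ± 0.18 higher in VIN13 (adjusted p = 4.98e-05). YIG1, whose product binds the glycerol phosphatase, rose by 1.93 ± 0.21 from day 2 to day 14 in VIN13 (adjusted p = 1.69e-06). The protein kinase gene YPK2 rose by 2.68 ± 0.84 in BM45 and 2.54 ± 0.75 in VIN13 from day 2 to day 5, and both calls were lost without a single day 2 array (adjusted p = 0.141 without replicate 4 of BM45 and 0.0843 without replicate 1 of VIN13), and in VIN13 also without replicate 1 or 2 of day 5. With the ACT1 ratio as covariate the BM45 rise of YPK2 was 0.35 ± 0.43 (adjusted p = 0.54).

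Among the genes of this list that fell, GUP2, a membrane protein gene once linked to glycerol uptake, fell from day 2 to day 5 by 2.05 ± 0.15 in BM45 (adjusted p = 8e-08) and by 1.46 ± 0.13 in VIN13 (adjusted p = 1.3e-06). YPD1, the phosphorelay protein between the osmosensor Sln1 and the Hog1 pathway, fell from day 5 to day 14 by 1.54 ± 0.11 in BM45 (adjusted p = 3.18e-08) and by 0.99 ± 0.11 in VIN13 (adjusted p = 1.29e-05). STE50, an adaptor of the kinase Ste11, fell by 1.55 ± 0.16 in BM45 over those days (adjusted p = 6.94e-07), and the change differed between the strains by 0.995 ± 0.22 (adjusted p = 0.0036). DAK2, the second dihydroxyacetone kinase gene, was lower in VIN13 than in BM45 at day 14 by 0.93 ± 0.19 (adjusted p = 0.000929), while DAK1 was higher there. YPK1, the paralog of YPK2, was lower in VIN13 at day 2 by 0.71 ± 0.10 (adjusted p = 0.000115).

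Over the 17 arrays, which share strains, days and the array effects described above, the glycerol genes fell into no common pattern. GPD1 and GUT1 were the most alike pair of the 10 (Pearson r = 0.90 on the log2 scale), followed by GPD1 and DAK1 (0.77) and by GPD2 and GUT2 (0.74). The paralogs were not alike, at 0.18 for GPD1 and GPD2 and 0.10 for GPP1 and GPP2, nor were GUT1 and GUT2, at -0.05. The most opposed pair was FPS1 and DAK1, at -0.91, followed by GPP2 and GUT2 at -0.73. Of all genes above the background bound, the highest correlations were with DDR48 for DAK1 (0.985), NPR1 for FPS1 (0.964), ILV3 for GPD1 (0.958), GOR1 for GCY1 (0.946), PHM7 for GUT2 (0.943), PUS1 for GPP2 (0.941), PDA1 for GUT1 (0.925), YHL042W for STL1 (0.91), PMT1 for GPD2 (0.877) and DSE2 for GPP1 (0.876). These are descriptions over 17 arrays in 6 groups and carry no test.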

How the data were processed

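The deposited table holds linear intensities, 1 per probe set and array, which the authors made with Affymetrix Expression Console, per the submitters' processing notes. Its version, algorithm and genome build were not given in the sources used here. Platform annotation gave 1 S. cerevisiae gene for 5498 of 10928 probe sets and 1 S. pombe gene for 1746, listed several genes for 1, and did not list 3683. The brightest probe set stood for each of the 47 genes with more than 1, leaving 5449 genes, and 12 symbols were updated through the RefSeq gene table of assembly R64.

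Intensities were used as log2(value + 16) without further normalization. A single linear model, with 1 mean for each group, described all 17 arrays (limma 3.58.1, R 4.3.3; 11 residual and 3.806 prior degrees of freedom). Two-sided p-values received the Benjamini-Hochberg adjustment within each of 13 comparisons. The background bound is the mean over arrays of the 95th percentile that S. pombe probe sets reached. Paralog ratios were tested by exact permutation of labels within strains or days. The fit and the permutation test were checked on simulated data. Tables used pandas 2.3.3 and numpy 2.4.6, and figures matplotlib 3.10.9, under Python 3.11.15.

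Groups follow the labels. No 2 arrays held identical values. The labels do not say that replicates were separate cultures, so p-values measure the spread between these samples, which may be technical, and the number of arrays limits the precision of every value. The members and lists were chosen with earlier results of these data known. All 10 members are named. Of the pathway list, the genes named came from the up to 4 called genes with the largest change in each comparison, and for likeness from the 3 genes with the highest correlation with each member. Alternatives were other pseudocounts, scalings, probe set rules, variance models, array weights, samples, thresholds, the replicate number as a block, the ACT1 ratio as a covariate and arrays left out. For the pathway list they were added after the data were seen.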

Additional observations from a re-analysis of the deposited data

Results flagged for a closer look

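Changes over time that differed between the strains, by limma's test of the difference itself (VIN13 minus BM45, 17 arrays), were found for 5 of the glycerol genes in 7 tests over 2 intervals. From day 5 to day 14 the difference was -0.92 ± 0.20 for GPP2 (adjusted p = 0.00272), which fell in VIN13 alone by the test. It was -0.84 ± 0.25 for STL1 (adjusted p = 0.0173), -0.67 ± 0.21 for FPS1 (adjusted p = 0.0252) and 0.77 ± 0.13 for DAK1 (adjusted p = 0.000566). From day 2 to day 14 it was -2.35 ± 0.78 for GPD2 (adjusted p = 0.0263), -1.55 ± 0.26 for STL1 (adjusted p = 0.000459) and 0.77 ± 0.13 for DAK1 (adjusted p = 0.000536). STL1 moved in opposite directions on every array, since in BM45 each array of day 14 lay above each of day 2 and in VIN13 each lay below. The GPD2 value rested on single arrays (-1.24 ± 0.70, adjusted p = 0.182, without replicate 4 of BM45 at day 2), and the FPS1 call was lost without any of 7 single arrays. Groups of 2 and 3 arrays are too small for a check of single outlying samples.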

How the results depend on the processing

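Of 130 member changes in 13 comparisons, 54 were called. Calls kept were 53 with a pseudocount of 1, 54 with 64, 53 after quantile normalization (5 gained), 52 after median centring (11 gained), 54 with the mean over probe sets, 54 without dim genes, 53 with trend and robust settings, 51 with arrayWeights (20 gained), 48 with only the arrays compared (10 gained), 42 at an adjusted p under 0.01, 19 at 2-fold or more, 50 with the ACT1 ratio as a covariate (15 gained) and 53 without the 4 arrays of high ACT1 ratio (24 gained). Median centring moved the median of all genes by up to 0.33 (BM45, day 14 against day 2) and -0.27 (VIN13 minus BM45, day 2 to day 14), and reversed no called member. Without the 4 arrays GPD2 reversed to 0.67 in VIN13 from day 2 to day 14 (from -0.02) and to 0.49 for the difference between the strains from day 2 to day 5 (from -0.73, not called). The cause of these shifts was not tested. For most of these settings the share of all genes called was not taken, so kept and gained calls have no background beside them.

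Member counts that moved by over 1.5 times were the following. VIN13 against BM45 at day 5 had 1 called, and 2 after quantile normalization or median centring, 6 with arrayWeights, 5 with only the arrays compared, with the ACT1 covariate or without the 4 arrays, and 0 at 2-fold. At day 2 it had 4, and 2 with arrayWeights, 1 with only the arrays compared and 2 at p under 0.01. At day 14 it had 3, and 6 with arrayWeights or without the 4 arrays and 1 at 2-fold. Averaged over days it had 4, and 7 without the 4 arrays and 1 at 2-fold. The difference of changes from day 5 to day 14 had 4, and 7 with arrayWeights, 2 at p under 0.01 and 0 at 2-fold. From day 2 to day 14 it had 3, and 6 after median centring. From day 2 to day 5 it had 0, and 2 with the covariate and 4 without the 4 arrays. VIN13 from day 2 to day 5 had 5, and 3 at p under 0.01 and 1 at 2-fold. At 2-fold the counts were 2, 2 and 3 in BM45 (days 2 to 5, 5 to 14 and 2 to 14) and 2 and 2 in VIN13 (days 5 to 14 and 2 to 14). Leaving out single arrays also moved the member counts between the strains at day 2. It moved those of the differences of changes from day 2 to day 5 and to day 14 as well. These counts are not given, as the share of all genes called was not taken there. That share was also not taken after quantile normalization or median centring, or with arrayWeights. Nor was it taken with only the arrays compared, with the ACT1 covariate or at p under 0.01. The member counts above for these settings therefore have no background beside them.

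Whether the replicate numbers pair arrays was left unsettled. Deviations of 31 same-numbered pairs had a median correlation of 0.02, and 15 exceeded 0.1. Those of 89 differently numbered pairs had a median of -0.023, and 32 exceeded 0.1. Deviations from the means of such small groups are tied to each other, so this comparison cannot decide the question. With the replicate number as a block, 51 member calls were kept and 4 gained. The count at day 5 between the strains was then 3, where 1523 of the 5449 genes were called, against 1373 without the block.

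Without the 4 arrays, 1 array of BM45 was left at day 2, and no paralog change over time passed. The tests with day 2 then stood at the smallest p that so few relabellings allow. Their missing the threshold therefore cannot show whether these changes rest on the 4 arrays. The test of GPD1 over GPD2 from day 5 to day 14 was adjusted together with them. Without the 4 arrays GPD1 over GPD2 changed by -0.78, -1.07 and -1.85 (days 2 to 5, 5 to 14, 2 to 14), and GPP1 over GPP2 by 1.26 and 1.18 (days 2 to 5 and 2 to 14). With single arrays left out, GPD1 over GPD2 ranged from -1.52 to -0.68 from day 2 to day 5, from -1.11 to -0.75 from day 5 to day 14, from -2.39 to -1.56 from day 2 to day 14 (adjusted p up to 0.0733 in both), and from -0.68 to -0.12 between the strains.

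Of the 46 pathway genes, those called in VIN13 from day 5 to day 14 were 31 with arrayWeights, 29 without the 4 arrays and 10 at p under 0.01. Between the strains at day 2 they were 2 with arrayWeights, 0 with only the arrays compared, 14 with the covariate, 18 without the 4 arrays and 5 at p under 0.01. At day 5 they were 33, 21, 21, 31 and 4 in the same order, and 6 to 12 with single arrays left out. At p under 0.01 they were 12 in VIN13 from day 2 to day 5 and 10 between the strains at day 14. At 2-fold they were 7, 9 and 17 in BM45, 7, 3 and 10 in VIN13 and 1 between the strains at each day.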
